A study of Homo sapiens with 16 samples.

Results

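The p53 target genes described here were 10 genes chosen by name, namely MDM2, CDKN1A, BTG2, PHLDA3, FDXR, SESN1, AEN, SPATA18, TP53INP1 and ZMAT3. They were 10 of 35075 annotated genes in the deposited files and of 16787 genes that could be tested, and all 10 passed the low-count filter. The cells were HEK293, a line derived from human embryonic kidney, and RNA was measured by sequencing after overexpression of 1 of 4 constructs. The groups were RNF43 G659fs and RNF43 R117fs, which are 2 frameshift variants of RNF43, wild-type RNF43 (WT) and a GFP control, with 4 libraries in each. All 4 groups thus carried an overexpressed gene, and cells without one were not analysed here. Nothing in the sources used here gives the vector, its promoter, the time after its introduction or the origin of the replicates. If the 4 libraries of a group came from 1 culture, the p-values reflect technical spread alone.

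p53 is a transcription factor that binds response elements near its target genes and raises their transcription when DNA is damaged or the cell is stressed. Its targets halt the cell cycle, repair DNA, tune metabolism or promote cell death, and one of them, MDM2, encodes the ubiquitin ligase that degrades p53. HEK293 cells carry early region genes of an adenovirus whose products bind p53 and restrain it. RNF43 is a transmembrane ubiquitin ligase best known for removing Frizzled receptors from the cell surface. It has also been reported to bind the ligase HECW1 (NEDL1) and to lower p53-driven transcription.

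The consensus p53 response element, a 20-base motif that is its own reverse complement, was searched for in the 250 bases upstream of the RefSeq start sites of the members (build GRCh38.p14). An entry was present for 8 of the 10 genes, with 15 start sites in all, and the closest match in each is a description of the letters and not evidence of binding. The MDM2 stretch, chr12:68808767-68809016 on the plus strand, is shown because it held one of the closest matches, with 2 mismatches, and lies at the internal promoter of the gene. SESN1, chr6:109008989-109009238 on the minus strand, held a match with 3 mismatches. BTG2, chr1:203305269-203305518 on the plus strand, is shown for contrast: its closest match had 5 mismatches, although BTG2 was among the genes that fell most. Capitals mark the closest match.
MDM2: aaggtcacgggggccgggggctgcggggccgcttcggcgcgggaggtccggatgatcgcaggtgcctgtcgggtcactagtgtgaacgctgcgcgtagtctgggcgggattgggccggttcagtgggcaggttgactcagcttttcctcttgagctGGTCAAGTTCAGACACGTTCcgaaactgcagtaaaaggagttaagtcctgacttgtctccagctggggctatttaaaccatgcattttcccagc
SESN1: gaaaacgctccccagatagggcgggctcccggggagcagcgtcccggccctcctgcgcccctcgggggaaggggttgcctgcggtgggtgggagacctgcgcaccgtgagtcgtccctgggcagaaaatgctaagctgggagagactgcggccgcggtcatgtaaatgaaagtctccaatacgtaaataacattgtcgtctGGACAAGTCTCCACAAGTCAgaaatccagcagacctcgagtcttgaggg
BTG2: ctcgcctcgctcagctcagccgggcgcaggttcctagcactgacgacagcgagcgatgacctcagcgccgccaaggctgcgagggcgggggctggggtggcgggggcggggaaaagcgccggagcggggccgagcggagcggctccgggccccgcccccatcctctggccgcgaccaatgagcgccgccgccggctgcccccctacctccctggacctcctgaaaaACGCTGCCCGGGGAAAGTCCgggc

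For AEN and FDXR the match itself is shown, because both lay close to a RefSeq start site, with centres 24 and 11 bases upstream of it. Both matches lay inside the gene's most abundant transcript, AEN-201 starting at chr15:88621296 and FDXR-201 at chr17:74873023. The AEN match, chr15:88621306-88621325 on the plus strand, had 2 mismatches, and the FDXR match, chr17:74872996-74873015 on the minus strand, had 3.
AEN: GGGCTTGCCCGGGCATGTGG
FDXR: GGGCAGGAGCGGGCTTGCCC

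Of all 35116 promoter entries of the same length, 0.561% held a match with at most 2 mismatches and 4.36% one with at most 3. These shares are per entry. MDM2, SESN1, FDXR and ZMAT3 had multiple entries and were scored by the best, so the shares make their matches look rarer than they are. At most 5 mismatches were found in 64.5% of entries, so the closest matches of BTG2, CDKN1A and SPATA18, each with 5, were no closer than those of most promoters. The closest match in ZMAT3 had 4 mismatches, a level reached by 22.1% of entries. Genes were grouped by the closest match at any of their start sites, which for MDM2 and SESN1 was not that of the most abundant transcript. At the start site of that transcript the closest match had 5 mismatches in both genes. For ZMAT3 the searched windows did not reach the start of its most abundant transcript. Of the genes with 2 mismatches, AEN fell by 1.03 and MDM2 by 0.37 on the log2 scale in G659fs, and of those with 5, BTG2 fell by 1.22, SPATA18 by 1.07 and CDKN1A by 0.37. A window without a close match says nothing of p53 binding elsewhere near the gene.

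Total estimated counts were 29886062 to 44738520 per library in G659fs, 20364357 to 41161835 in R117fs, 32761360 to 46779570 in WT and 25441077 to 30937321 in GFP. RNF43 averaged 39391 CPM (counts per 1000000 counts, after TMM scaling) in G659fs, 68441 in R117fs and 53346 in WT, against 31.4 CPM in GFP, as the labels imply. R117fs replicate 4 stood apart, with an SD of its genes' log2 deviations of 0.578 against at most 0.409 in any other library, and R117fs replicate 1 differed from the other R117fs libraries in its counts. All 7 genes listed as markers of HEK293 passed the low-count filter, and of 5 haematopoietic markers PTPRC, CD3E and HBB reached at most 6 counts in any library. The summed CPM of the HEK293 markers was 1207 to 1321 in G659fs, 1115 to 1318 in R117fs and 1310 to 1410 in WT, against 981 to 1130 in GFP. Most of it was VIM, with a mean of 762.6 CPM in G659fs, 731.1 in R117fs and 849.5 in WT, against 680 in GFP. The means of KRT8 and PAX2 in G659fs, CDH2 in R117fs and PAX2 in WT were below GFP, and the other means were above it. The sum of the haematopoietic markers, of which 2 passed, was 5.40 to 5.85 CPM in G659fs, 3.94 to 6.99 in R117fs and 4.17 to 5.22 in WT, against 5.96 to 7.55 in GFP. The summed CPM of 5 gut epithelium markers was 25.4 to 27.5 in G659fs, 23.9 to 34.4 in R117fs and 24.01 to 28.2 in WT, against 20.6 to 22.8 in GFP, with KRT20 at 0 or 1 count and 4 of 5 markers past the filter. Most of this sum was CDX2, with a mean of 25.53 CPM in G659fs, 25.71 in R117fs and 25.15 in WT, against 20.17 in GFP. The means of VIL1, CDH17 and LGALS4 were lower in G659fs and WT than in GFP. In R117fs the mean of VIL1 was lower and those of CDH17 and LGALS4 were higher. For 5 fibroblast markers, of which 4 passed, the sum was 50.9 to 65.5 CPM in G659fs, 37.1 to 60.9 in R117fs and 33.3 to 46.7 in WT, against 41.3 to 54.8 in GFP. The part of these markers in the results below was not tested.

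The p53 target genes were lower in all 3 RNF43 groups than in GFP. In G659fs 9 of the 10 genes fell and none rose by the edgeR quasi-likelihood test at an adjusted p under 0.05, where 13.8% of all genes tested fell. In R117fs 8 of 10 fell and none rose, against 8.57% of all genes, and in WT 9 of 10 fell and none rose, against 11.6% of all genes. The median log2 fold change of the 10 genes was -0.92 in G659fs, -0.47 in R117fs and -0.70 in WT, while the median over all genes was within 0.01 of 0 in each comparison. The 3 comparisons share the same GFP libraries and so are not independent of each other.

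CDKN1A, BTG2, PHLDA3, FDXR, SPATA18, TP53INP1 and SESN1, 7 of the 10, fell in all 3 groups, which 4.4% of all genes did. Counted by library, 9 of the 10 genes had all G659fs libraries below all GFP libraries (18.8% of all genes), 7 had all R117fs libraries below (9.19% of all genes, with 7.29% above) and 9 had all WT libraries below (16.7% of all genes). No member had all libraries above GFP in any group, where 19.1% of all genes did in G659fs and 17.1% in WT. For 6 of the genes that fell in all 3 groups, all but PHLDA3, every one of the 12 RNF43 libraries lay below every GFP library, a pattern shown by 4.97% of all genes. Falls of at least 2-fold were seen for 4 genes in G659fs (BTG2, PHLDA3, SPATA18 and AEN), for 1 gene in WT (BTG2) and for none in R117fs. In RNA from bulk cells, fewer cells that express a gene and less RNA per cell cannot be told apart.

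**Figure D1:**
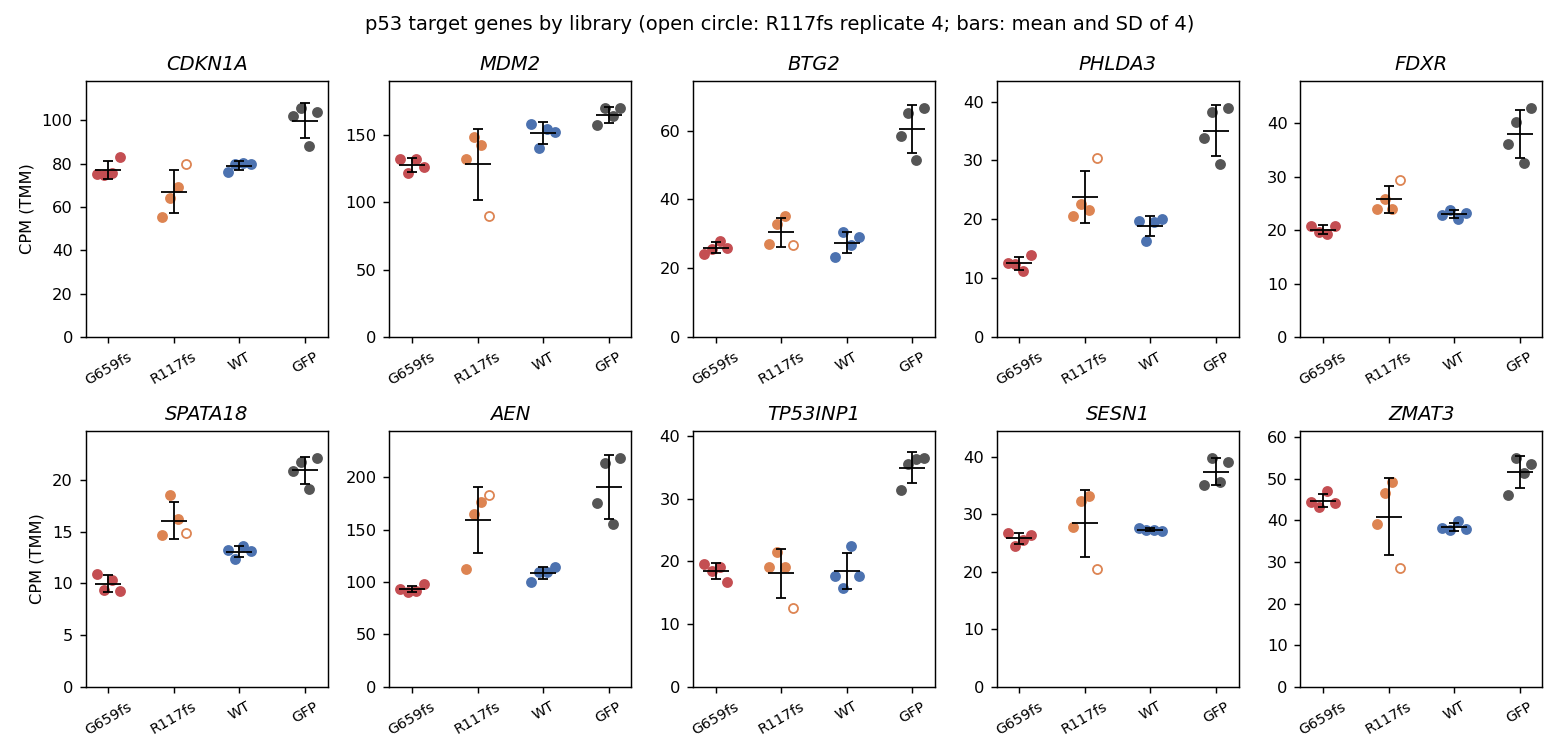
CPM after TMM normalization (y axis, from 0) of each p53 target gene in every library, with groups on the x axis from G659fs to GFP. Points are libraries, the open circle is R117fs replicate 4, and bars give the mean and SD of 4 libraries. The 4 GFP libraries sit above all 12 RNF43 libraries in 6 of the 10 panels.

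**Figure D2:**
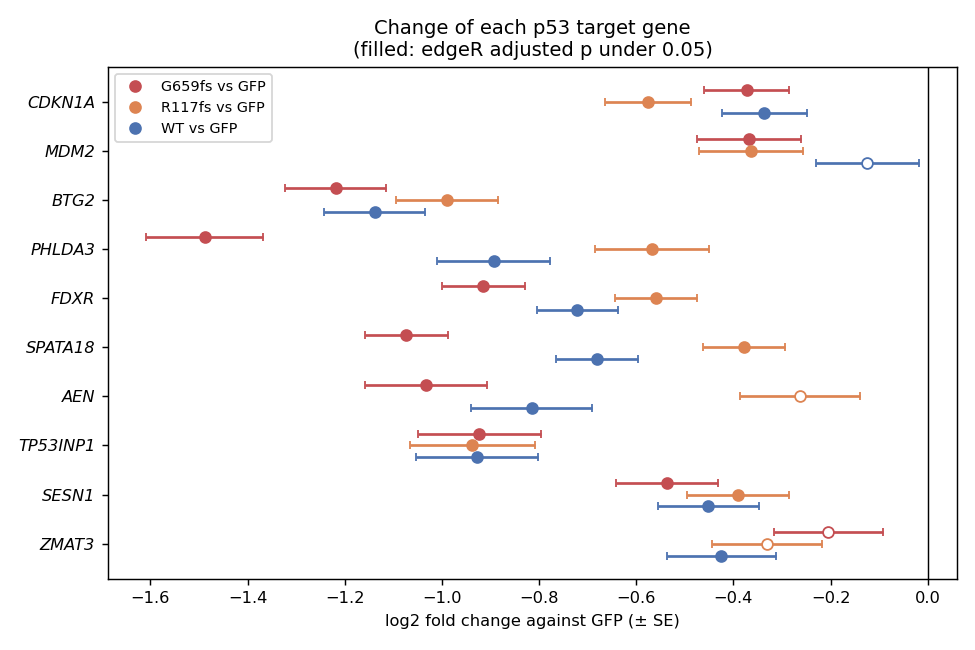
Log2 fold change against GFP (x axis, points with SE) of each p53 target gene (rows) in G659fs, R117fs and WT. Filled points passed edgeR at an adjusted p under 0.05. All 30 points lie left of 0, 26 of them filled, and PHLDA3, SPATA18 and AEN spread most between the groups.

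MDM2 (ENSG00000135679, chr12:68808176-68850686, plus strand) closes the feedback loop of the pathway by marking p53 for degradation. It had 131.8, 121.3, 131.5 and 125.8 CPM in the G659fs libraries, 131.5, 147.8, 142.4 and 89.6 in R117fs and 158.1, 140.0, 154.3 and 152.0 in WT, against 156.7, 169.3, 163.4 and 169.3 in GFP. All G659fs and R117fs libraries lay below the GFP libraries, while WT overlapped GFP. MDM2 fell by 0.37 ± 0.11 (log2 scale, SE) in G659fs, with an edgeR adjusted p of 0.0168, and by 0.36 ± 0.11 in R117fs, with an adjusted p of 0.0275. In WT the log2 fold change was -0.12 (95% interval -0.33 to 0.08, edgeR adjusted p = 0.436), which passed in 4 alternatives: the GC trend removed (0.0146), the same with the replicate block (0.0153), without R117fs replicate 4 (0.0497) and without R117fs replicates 1 and 4 (0.0263). The G659fs call was lost with an offset for effective transcript length (edgeR adjusted p = 0.0914) and without G659fs replicate 2 (0.0529). The R117fs call was lost in 5 alternatives, among them the fit of these 8 libraries alone (edgeR adjusted p = 0.161) and the fits without GFP replicate 2 (0.0742), 3 (0.0627) or 4 (0.0794). Without R117fs replicate 4 the R117fs fall was smaller, 0.23 on the log2 scale, and passed (0.00411).

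CDKN1A (ENSG00000124762, chr6:36676460-36687339, plus strand) encodes p21, the inhibitor of cyclin-dependent kinases through which p53 halts the cell cycle. Its level was 75.03, 74.6, 75.8 and 83.1 CPM in G659fs, 55.5, 64.2, 69.2 and 79.7 in R117fs and 76.2, 79.9, 80.5 and 79.9 in WT, against 102.0, 105.5, 88.1 and 103.9 in GFP. No library of the RNF43 groups reached the GFP range. The fall was 0.37 ± 0.09 on the log2 scale in G659fs (edgeR adjusted p = 0.00491), 0.58 ± 0.09 in R117fs (0.00037) and 0.34 ± 0.09 in WT (0.011).

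BTG2 (ENSG00000159388, chr1:203305491-203309602, plus strand), an antiproliferative partner of the mRNA deadenylase complex, showed a deep fall in every group. It was measured at 24.1, 25.6, 28.0 and 26.0 CPM in G659fs, 27.0, 32.7, 35.2 and 26.9 in R117fs and 23.4, 30.6, 26.8 and 28.97 in WT, against 58.5, 65.3, 51.6 and 66.5 in GFP. The groups were separated by a wide gap, since the highest RNF43 library, at 35.2 CPM, lay below the lowest GFP library, at 51.6 CPM. BTG2 fell by 1.22 ± 0.10 in G659fs (edgeR adjusted p = 5.5e-07), by 0.99 ± 0.10 in R117fs (1.2e-05) and by 1.14 ± 0.10 in WT (2.7e-06), all on the log2 scale.

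PHLDA3 (ENSG00000174307, chr1:201464383-201469237, minus strand) encodes a pleckstrin homology protein that keeps the kinase AKT off the membrane. Its CPM were 12.6, 12.3, 11.2 and 13.9 in G659fs, 20.6, 22.6, 21.6 and 30.4 in R117fs and 19.6, 16.4, 19.5 and 20 in WT, against 33.8, 38.2, 29.4 and 38.8 in GFP. The G659fs libraries were the lowest of all groups with no overlap, and R117fs replicate 4 alone reached the GFP range. The log2 fall was 1.49 ± 0.12 in G659fs (edgeR adjusted p = 2.6e-07), 0.57 ± 0.12 in R117fs (0.00347) and 0.89 ± 0.12 in WT (5.1e-05). This was the largest fall of any of the 10 genes in G659fs.

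FDXR (ENSG00000161513, chr17:74862497-74873031, minus strand) encodes ferredoxin reductase, a mitochondrial enzyme that passes electrons for steroid and iron-sulfur cluster synthesis. It had 20.7, 19.7, 19.2 and 20.8 CPM in G659fs, 23.9, 25.8, 23.9 and 29.3 in R117fs and 22.9, 23.7, 22.0 and 23.2 in WT, against 35.99, 40.2, 32.6 and 42.7 in GFP. All 3 RNF43 groups lay below GFP, and G659fs lay below the other two. FDXR fell by 0.91 ± 0.08 in G659fs (edgeR adjusted p = 1.3e-06), by 0.56 ± 0.08 in R117fs (0.00033) and by 0.72 ± 0.08 in WT (2.1e-05) on the log2 scale. Summed over protein-coding transcripts alone, the log2 fall was smaller, 0.59 in G659fs, 0.38 in R117fs and 0.36 in WT, and each still passed (edgeR adjusted p = 0.00105, 0.0262 and 0.0262).

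SESN1 (ENSG00000080546, chr6:108986437-109094819, minus strand) encodes sestrin 1, which restrains mTORC1 signalling under stress. The range was 24.5 to 26.7 CPM in G659fs, 20.4 to 33.2 in R117fs and 27.0 to 27.7 in WT, against 35.2 to 39.8 in GFP, and no RNF43 library reached the GFP range. Its log2 fall was 0.54 ± 0.10 in G659fs (edgeR adjusted p = 0.00122), 0.39 ± 0.10 in R117fs (0.0177) and 0.45 ± 0.10 in WT (0.00494). The R117fs call was lost in 4 alternatives, with edgeR adjusted p of 0.0519 with the effective length offset, 0.142 in the fit of the 8 libraries alone, and 0.0609 or 0.0605 without GFP replicate 2 or 4.

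AEN (ENSG00000181026, chr15:88621296-88632282, plus strand) encodes a nuclease that degrades DNA and RNA in p53-driven apoptosis. Its libraries held 93.3, 90.7, 91.0 and 97.6 CPM in G659fs, 112.7, 164.4, 176.4 and 182.6 in R117fs and 100.3, 109.2, 109.6 and 114.0 in WT, against 175.0, 213.7, 155.3 and 218.1 in GFP. G659fs and WT lay wholly below GFP, whereas 3 of the 4 R117fs libraries fell within the GFP range and R117fs replicate 1, at 112.7 CPM, lay far below it. The log2 fall was 1.03 ± 0.13 in G659fs (edgeR adjusted p = 1.8e-05) and 0.82 ± 0.12 in WT (0.00022). In R117fs the log2 fold change was -0.26 (95% interval -0.50 to -0.02, edgeR adjusted p = 0.162), and -0.12 without R117fs replicate 1 (0.42).

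SPATA18 (ENSG00000163071, chr4:52051331-52097292, plus strand), also called Mieap, takes part in the quality control of mitochondria. It had 10.9, 9.4, 10.3 and 9.3 CPM in G659fs, 14.7, 18.5, 16.2 and 14.8 in R117fs and 13.2, 12.4, 13.6 and 13.1 in WT, against 20.8, 21.7, 19.2 and 22.1 in GFP. None of the 4 groups overlapped another, with G659fs lowest, then WT, then R117fs, then GFP. SPATA18 fell by 1.07 ± 0.09 in G659fs (edgeR adjusted p = 2.6e-07), by 0.38 ± 0.08 in R117fs (0.0062) and by 0.68 ± 0.08 in WT (3.4e-05) on the log2 scale. The R117fs call was sensitive to the offset for effective transcript length, with which the log2 fold change was -0.04 (edgeR adjusted p = 0.877). The mean effective length of SPATA18 was 2205 ± 500 bases in R117fs and 2856 ± 245 in GFP (SD, n = 4 each). This length is itself an estimate weighted by transcript levels, and it ranged from 1543 to 2748 bases in R117fs. The part of transcript length in the fall was not tested. The R117fs call was also lost in the fit of the 8 libraries alone (0.0721).

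TP53INP1 (ENSG00000164938, chr8:94925972-94949411, minus strand) encodes a stress protein of autophagy and p53-dependent apoptosis. Its CPM were 19.5, 18.5, 19.1 and 16.6 in G659fs, 19.1, 21.5, 19.2 and 12.5 in R117fs and 17.7, 15.7, 22.5 and 17.7 in WT, against 31.3, 35.6, 36.4 and 36.5 in GFP. The 3 RNF43 groups overlapped one another and all lay below GFP. The log2 fall was 0.92 ± 0.13 in G659fs (edgeR adjusted p = 6.3e-05), 0.94 ± 0.13 in R117fs (0.00014) and 0.93 ± 0.13 in WT (8e-05).

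ZMAT3 (ENSG00000172667, chr3:179017223-179072279, minus strand) encodes an RNA-binding zinc finger protein that regulates splicing downstream of p53. It was measured at 43.2 to 47.0 CPM in G659fs, 28.7 to 49.3 in R117fs and 37.6 to 39.9 in WT, against 46.2 to 55.0 in GFP. Only the WT libraries lay wholly below GFP, and only there did the gene fall, by 0.42 ± 0.11 on the log2 scale (edgeR adjusted p = 0.0123). The log2 fold change was -0.20 in G659fs (95% interval -0.42 to 0.01, edgeR adjusted p = 0.196) and -0.33 in R117fs (-0.55 to -0.11, adjusted p = 0.0554). G659fs passed in 5 and R117fs in 8 of 27 alternatives, and the difference between these groups and WT did not pass.

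On the length-scaled TPM scale, which allows levels of different genes to be compared, AEN (99.3 ± 15.0 TPM), CDKN1A (92.8 ± 7.6) and MDM2 (82.7 ± 4.6) were the most abundant of the 10 in GFP (SD, n = 4). The ranges of AEN and CDKN1A overlapped there, as did those of CDKN1A and MDM2. PHLDA3 (39.3 ± 4.8 TPM), BTG2 (37.7 ± 4.1) and FDXR (34.5 ± 3.7) formed a middle tier with overlapping ranges, followed by SESN1 (20.1 ± 0.7) and ZMAT3 (11.95 ± 1.6), whose range overlapped that of SPATA18 (10.2 ± 0.4). TP53INP1 (8.92 ± 0.77) was the lowest in GFP. In G659fs the order at the top differed, with CDKN1A at 64.5 ± 2.4 TPM, MDM2 at 59.3 ± 2.1 and AEN at 45.1 ± 1.4, and the ranges of these 3 genes did not overlap.

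The RNF43 groups were then compared with each other. Their mean RNF43 level was 39391 CPM in G659fs, 68441 in R117fs and 53346 in WT, with overlap between libraries. The parts of the variant and of RNF43 level in the differences below were not tested. Against WT, G659fs was lower for PHLDA3 and SPATA18, 2 of the 10 genes, and higher for none, where 3.35% of all genes were lower, 2.32% higher and 5.68% changed in either direction. PHLDA3 differed by -0.59 ± 0.12 (log2, edgeR adjusted p = 0.0117) and SPATA18 by -0.39 ± 0.09 (0.018). All G659fs libraries lay below all WT libraries for 6 members, MDM2, PHLDA3, FDXR, SPATA18, AEN and SESN1 (14.5% of all genes), and above for ZMAT3 (12.3% of all genes). R117fs was higher than WT for 2 of the 10 genes, AEN by 0.55 ± 0.12 (edgeR adjusted p = 0.0131) and SPATA18 by 0.30 ± 0.09 (0.0384), and lower for none, where 4.5% of all genes were higher, 3.62% lower and 8.11% changed in either direction. All R117fs libraries lay above all WT libraries for PHLDA3, FDXR and SPATA18 (7.01% of all genes) and below for no member (8.32% of all genes).

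G659fs was lower than R117fs for 4 of the 10 genes, and higher for none, where 8.02% of all genes were lower, 6.35% higher and 14.4% changed in either direction. The differences were -0.92 ± 0.12 for PHLDA3 (log2, edgeR adjusted p = 0.00012), -0.77 ± 0.12 for AEN (0.00068), -0.69 ± 0.09 for SPATA18 (8e-05) and -0.36 ± 0.09 for FDXR (0.0103). The FDXR call was lost over protein-coding transcripts only, with a difference of -0.21 (edgeR adjusted p = 0.211). For these 4 genes every G659fs library lay below every R117fs library, as in 8.78% of all genes. In contrast, TP53INP1 differed by 0.01 between G659fs and R117fs (95% interval -0.24 to 0.27), by 0.00 between G659fs and WT (-0.25 to 0.26) and by -0.01 between R117fs and WT (-0.26 to 0.24).

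For CDKN1A neither difference from R117fs passed: 0.20 between G659fs and R117fs (95% interval 0.03 to 0.38, edgeR adjusted p = 0.13) and -0.24 between R117fs and WT (-0.41 to -0.07, adjusted p = 0.0974). BTG2 differed by -0.23 between G659fs and R117fs (95% interval -0.44 to -0.02, edgeR adjusted p = 0.158) and by -0.08 between G659fs and WT (-0.29 to 0.13, adjusted p = 0.704). These contrasts between RNF43 groups were sensitive to single libraries. Without WT replicate 1, G659fs replicate 2 or G659fs replicate 3 the count of members changed between G659fs and WT was 0, and SPATA18 in R117fs against WT lost its call in 10 alternatives, with edgeR adjusted p up to 0.251. Without both R117fs libraries that stood apart, replicates 1 and 4, 3 members were lower and 1 higher in G659fs than in WT, 4 were higher and 1 lower in R117fs than in WT, and 7 were lower and 1 higher in G659fs than in R117fs. The genes changed in those fits also numbered more, at 4169 for G659fs against WT, 3406 for R117fs against WT and 4563 for G659fs against R117fs, against 953, 1362 and 2412 with all libraries.

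Within R117fs, replicate 4 deviated from the other 3 libraries along the GC content of the transcripts. The genes poorest in GC, TP53INP1 (39.4%), MDM2 (39.6%), SESN1 (42.1%) and ZMAT3 (45.1%), were lower in replicate 4 by 0.66, 0.65, 0.60 and 0.64 on the log2 scale than the mean of the other 3. The richest in GC, CDKN1A (59.5%), FDXR (63.5%) and PHLDA3 (65.7%), were higher there by 0.35, 0.26 and 0.49. Across all genes the Spearman correlation of the deviation in replicate 4 with GC content was 0.790, a description over genes, which are not independent replicates. Replicate 1 was low for AEN, by 0.63 on the log2 scale, and it also had the least RNF43 of the R117fs libraries, 30191 CPM against 69368 to 94569 in the others; the part of RNF43 level in these values was not tested. Without replicate 4 the log2 fold change of these GC-poor genes against GFP in R117fs was nearer to 0: -0.81 for TP53INP1 (edgeR adjusted p = 1.4e-05), -0.23 for MDM2 (0.00411), -0.27 for SESN1 (0.00516) and -0.20 for ZMAT3 (0.0436). For the GC-rich genes it was further from 0, -0.67 for CDKN1A (edgeR adjusted p = 4.2e-06), -0.62 for FDXR (1.7e-05) and -0.70 for PHLDA3 (4.7e-05). Without both replicates 1 and 4 it was -0.17 for MDM2 (edgeR adjusted p = 0.029), -0.18 for SESN1 (0.0403), -0.24 for SPATA18 (0.0432) and -0.10 for ZMAT3 (0.291).

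**Figure D3:**
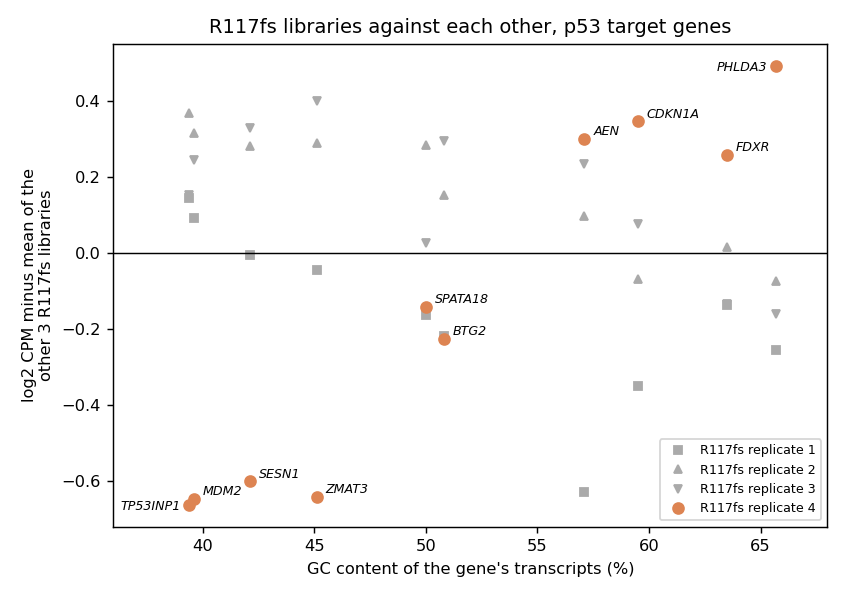
Deviation of each R117fs library from the mean log2 CPM of the other 3 R117fs libraries (y axis) against the GC content of the gene's transcripts in percent (x axis), for the 10 p53 target genes. Orange circles are replicate 4 and grey symbols the other replicates. Replicate 4 lies near -0.6 for the 4 genes below 46% GC and above 0 for the 4 genes above 55% GC.

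The share of each gene's estimated counts on its most abundant transcript was compared with GFP by a two-sided exact permutation test, 30 tests in all. With 4 libraries against 4 the smallest p this test can give is 0.0286. After Benjamini-Hochberg adjustment over the 30 tests none passed. At that floor a test could pass only if most of the 30 tests reached it. The lack of a pass therefore does not show that a share was unchanged. FDXR showed the widest gaps. Its transcript FDXR-201 took 66.8% ± 7.8 of the gene's counts in G659fs, 37.4% ± 12.6 in R117fs and 68.8% ± 6.0 in WT, against 36.8% ± 2.4 in GFP (SD, n = 4 each). All G659fs and all WT libraries lay above GFP, with an exact permutation p of 0.0286 in each case (adjusted 0.214), whereas R117fs overlapped GFP. The retained-intron transcript FDXR-208 held 6.1% ± 0.7 in G659fs, 10.2% ± 3.5 in R117fs and 5.2% ± 1.6 in WT, against 17.1% ± 1.8 in GFP.

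SESN1-202 took 47.6% ± 1.1 of SESN1 counts in G659fs, 59.2% ± 5.2 in R117fs and 58.8% ± 4.8 in WT, against 60.8% ± 3.1 in GFP, and the G659fs libraries lay below all GFP libraries (exact permutation p = 0.0286, adjusted 0.214). The longer SESN1-204, which starts at a distant upstream promoter, held 49.2% ± 4.3 in G659fs, 38.2% ± 5.2 in R117fs and 39.9% ± 4.5 in WT, against 34.6% ± 4.0 in GFP. AEN-201 took 95.2% of AEN counts in G659fs and 95.9% in GFP, a small gap without overlap. These shares are estimates that divide reads between overlapping transcripts.

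Beyond the 10 genes, 64 other p53 targets in 4 lists were examined, of which 63 could be tested (TNFRSF10A had at most 9 counts in any library). In G659fs 32 fell and 6 rose, in R117fs 21 fell and 2 rose, and in WT 19 fell and 6 rose. Of all genes tested, 13.8% fell in G659fs, 8.57% in R117fs and 11.6% in WT, while 11.6%, 7.04% and 9.85% rose. These shares are also the background for the counts of each of the 4 lists below. The median log2 fold change of the 63 other targets was -0.29 in G659fs, -0.16 in R117fs and -0.14 in WT, nearer to 0 than that of the 10 genes. In all 3 groups 13 of the 63 fell, which 4.4% of all genes did, among them DDB2, BAX, EDA2R, PIDD1, POLH and PPM1D. Some of these calls were lost in alternatives. In G659fs POLH lost its call with the effective length offset (edgeR adjusted p = 0.0821). In R117fs PIDD1 lost it in 3 alternatives (edgeR adjusted p up to 0.125) and EDA2R in the fit of the 8 libraries alone (0.0505). The number that fell in R117fs was 5 in the fit of its 8 libraries alone and 12 without GFP replicate 4.

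Among DNA repair targets 7 of 10 fell in G659fs, 5 in R117fs and 3 in WT, and none rose. DDB2, which recognises ultraviolet damage, fell by 1.27 ± 0.10 in G659fs (log2, edgeR adjusted p = 1.9e-07), by 0.71 ± 0.10 in R117fs (0.00016) and by 0.97 ± 0.10 in WT (6.4e-06). POLH, a polymerase that copies past such damage, fell by 0.64 ± 0.08 in R117fs (edgeR adjusted p = 4.7e-05) and by 0.66 ± 0.08 in WT (2.2e-05), and both calls were lost with the effective length offset (0.0786 and 0.0797).

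Of 16 apoptosis and death receptor genes tested, 8 fell and 2 rose in G659fs, 8 fell and none rose in R117fs, and 4 fell and 3 rose in WT. EDA2R, a receptor of the tumour necrosis factor family, fell by 1.35 ± 0.14 in G659fs (log2, edgeR adjusted p = 5.9e-06), and PIDD1, a death domain scaffold, by 0.84 ± 0.09 in WT (1.5e-05). PMAIP1, which encodes the pro-apoptotic BCL2 family member NOXA, went the other way. It averaged 365.4 CPM in G659fs and 304.8 in WT, against 207.8 in GFP, a log2 rise of 0.81 ± 0.12 in G659fs (edgeR adjusted p = 0.00015) and 0.55 ± 0.12 in WT (0.0039), with every library of both groups above GFP. In R117fs the PMAIP1 log2 fold change was 0.25, which did not pass in the main fit but passed in 4 of 27 alternatives.

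Of 15 cell cycle and growth targets 8 fell and 1 rose in G659fs, while 5 fell and 1 rose in R117fs and in WT. PPM1D, the phosphatase WIP1 that reverses p53 activation, fell by 0.74 ± 0.11 in G659fs (log2, edgeR adjusted p = 0.00011), by 0.42 ± 0.11 in R117fs (0.0137) and by 0.59 ± 0.11 in WT (0.00088). The R117fs call was lost in 5 alternatives, for example without both R117fs replicates 1 and 4 (edgeR adjusted p = 0.123). GADD45A, a stress sensor that inhibits growth, rose by 0.27 ± 0.09 in R117fs (edgeR adjusted p = 0.0454, lost in 18 of 27 alternatives) and by 0.40 ± 0.09 in WT (0.00326). IER5, an immediate early gene, rose by 0.33 ± 0.11 in G659fs (edgeR adjusted p = 0.0286, lost in 6 alternatives).

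Of 22 metabolic, autophagy and secreted targets 9 fell and 3 rose in G659fs, 3 fell and 1 rose in R117fs, and 7 fell and 2 rose in WT. GDF15, a secreted stress cytokine, fell by 0.91 ± 0.32 in G659fs (log2, edgeR adjusted p = 0.0458), with overlap between libraries and the call lost in 10 alternatives. Its log2 fold change was 0.39 in R117fs (edgeR adjusted p = 0.418) and 0.34 in WT (0.452). RAP2B, a small GTPase, rose by 0.35 ± 0.06 in G659fs (edgeR adjusted p = 0.00051). It also rose in WT, by 0.22, with the call lost in 3 alternatives. GSS, glutathione synthetase, rose by 0.36 ± 0.06 in R117fs (edgeR adjusted p = 0.00101) and by 0.37 ± 0.06 in WT (0.00051). Its rise in G659fs was 0.20, with the call lost in 7 alternatives. NADSYN1, an enzyme of NAD synthesis, fell in all 3 groups. The fall was 0.65 ± 0.09 in R117fs (edgeR adjusted p = 0.00011), and the log2 fold change was -0.70 in G659fs and -0.625 in WT. Over protein-coding transcripts alone it was -0.22 in R117fs (edgeR adjusted p = 0.259), -0.02 in G659fs (0.945) and 0.22 in WT (0.234).

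**Figure D4:**
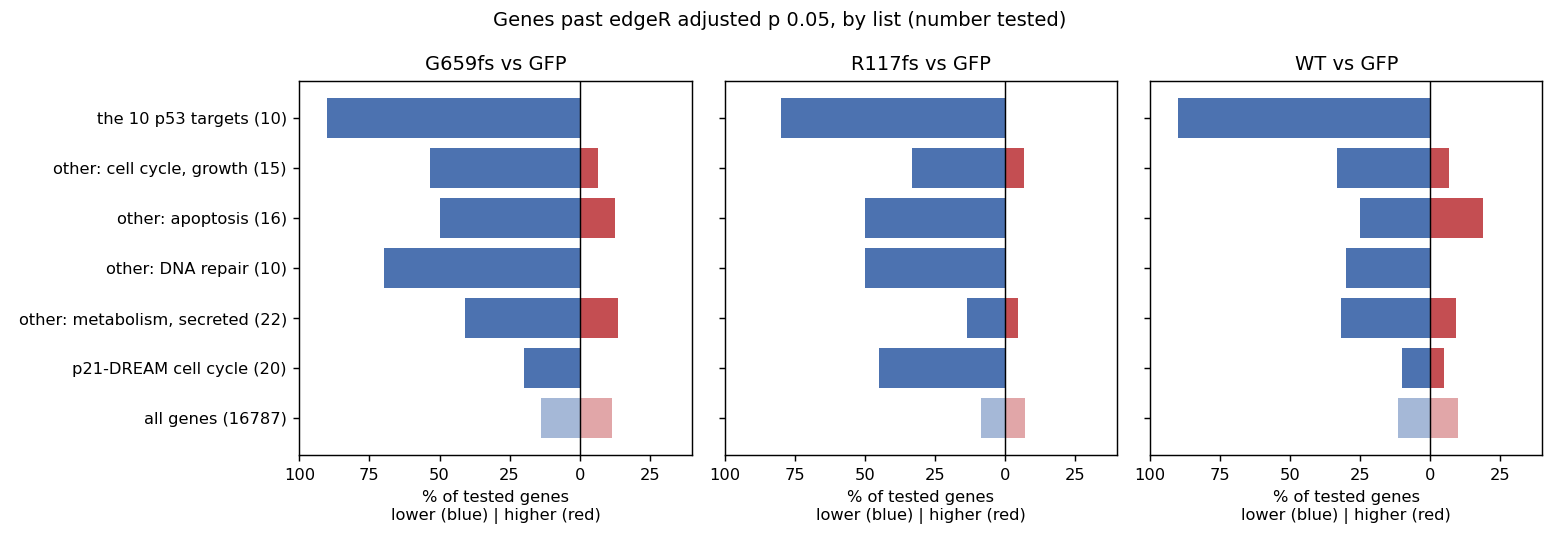
Percent of tested genes (x axis) that were lower (blue, left) or higher (red, right) at an edgeR adjusted p under 0.05, by gene list (rows, with the number tested), in panels for G659fs, R117fs and WT against GFP. The bottom row is all 16787 genes. The 10 p53 targets have the longest blue bar in each panel and no red one.

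Genes that act upstream in the pathway were read next. MDM4, the partner of MDM2 that blocks p53, did not pass in any group, with log2 fold changes of -0.11 in G659fs, -0.02 in R117fs and -0.12 in WT (edgeR adjusted p = 0.403, 0.913 and 0.375). CDKN2A, which encodes the MDM2 inhibitor ARF beside the kinase inhibitor p16, had log2 fold changes of 0.34 in G659fs, 0.28 in R117fs and 0.26 in WT (edgeR adjusted p = 0.0514, 0.14 and 0.146). The G659fs value passed in 9 of 27 alternatives, R117fs in 1 and WT in 2. HECW1 was scarce, at 1.76 CPM in G659fs, 1.99 in R117fs and 1.80 in WT, against 1.65 in GFP, and did not pass. TP53BP1, a DNA damage mediator, fell in all 3 groups, by 0.32 ± 0.07 in G659fs, 0.31 ± 0.07 in R117fs and 0.33 ± 0.07 in WT (log2, edgeR adjusted p = 0.0025, 0.00564 and 0.00252).

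Genes of the cell cycle that p53 lowers through p21 and the DREAM repressor were read beside CDKN1A. Of 20 genes, 4 fell and none rose in G659fs, 9 fell and none rose in R117fs, and 2 fell and 1 rose in WT. Of all genes 13.8% fell in G659fs, 8.57% in R117fs and 11.6% in WT, so that the counts in G659fs and WT were near the background. The median log2 fold change was -0.06 in G659fs, -0.21 in R117fs and 0.01 in WT. In R117fs these included CDC25C, lower by 0.67 ± 0.10 on the log2 scale (edgeR adjusted p = 0.00032), BUB1, lower by 0.58 ± 0.12 (0.00296), and AURKA, lower by 0.44 ± 0.11 (0.01).

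The genes whose pattern over the 16 libraries was most like that of CDKN1A, by the root mean square difference of centred log2 CPM, were NRBP1 (0.090), TACC3 (0.095), OXCT2 (0.115), CYB561D2 (0.119) and UBALD2 (0.121). This measure depends on the size of a gene's changes as well as on their pattern, so genes that fell more deeply than CDKN1A score as unlike it whatever their pattern. No other member was near the top. The closest were SESN1 (0.247, rank 2731), MDM2 (0.252, rank 3087), FDXR (0.256, rank 3368) and ZMAT3 (0.260, rank 3649), and the furthest was PHLDA3 (0.473, rank 14566). MDM2 held this rank although it did not fall more deeply than CDKN1A in any group.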

How the data were processed

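RNeasy columns with DNase I gave total RNA for NEBNext libraries, per the labels' protocols. The submitters' processing notes name kallisto 0.45.1 and GRCh38. The deposited files give an estimated count and a TPM value per transcript; the sources used here name neither strand setting nor annotation release, so overlapping genes cannot be told apart. Of 178136 transcripts, 162453 (91.2%) matched GENCODE 29 by identifier, and the rest, 1.904% to 2.216% of counts, were left out. The deposited estimated counts were summed over 35075 genes and rounded, and the deposited TPM summed per gene.

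Tests used edgeR 4.0.16 in R 4.3.3 (TMM, filterByExpr, robust dispersions, glmQLFit, glmQLFTest), 1 fit of all 16 libraries, with Benjamini-Hochberg adjustment over 16787 genes and a threshold of 0.05. Each SE was derived from the log2 fold change and its F statistic, with normal 95% intervals. The common biological coefficient of variation was 0.103. Totals of 20364357 to 46779570 counts per library left member counts of at least 244, the lowest for TP53INP1. The procedure was first tested on simulated data. DESeq2 1.42.0 and other settings served as alternatives. Levels are CPM after TMM.

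The members, lists and tests were chosen with earlier results of these data known. Named beside the 10 members were, in each comparison with GFP, up to 3 other targets with the largest fall and up to 3 with the largest rise, and MDM4, PPM1D, CDKN2A and HECW1; 1 further gene of this rule, with the counts of the list that holds it, is not reported here. TP53BP1, CDC25C, BUB1, AURKA, MT-ATP8 and the genes listed as fallen in all 3 groups were named after their values were seen.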

Additional observations from a re-analysis of the deposited data

Results flagged for a closer look

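In 40 groups of 4 libraries (10 genes in 4 groups), 4 held a library that lay far from the other 3 by Dixon's test, where chance flags about 1 in 20 groups. CDKN1A in G659fs replicate 4 had 83.1 CPM, above 74.6 to 75.8 in the other G659fs libraries. CDKN1A in WT replicate 1 had 76.2 CPM, below 79.9 to 80.5 in the other WT libraries. PHLDA3 in WT replicate 2 had 16.4 CPM, below 19.5 to 20. TP53INP1 in GFP replicate 1 had 31.3 CPM, below 35.6 to 36.5. The 3 RNF43 libraries lay below all GFP libraries for their gene and the GFP library above all RNF43 libraries, and the calls of the 3 genes against GFP held in each fit that left out 1 library.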

How the results depend on the processing

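Of 30 member changes against GFP, 26 passed, and 22 of these passed in all 27 alternatives; none changed sign. The members changed in R117fs against GFP numbered 5 with the effective length offset and 5 in the 8 libraries alone, where 5 other targets were lower, against 12 without GFP replicate 4. Between RNF43 groups, G659fs against WT gave 1 member with the effective length offset, 1 with protein-coding transcripts only, 6 in the 8 libraries alone, 5 with the GC trend removed, 5 with the replicate block and GC trend removed, 4 without R117fs replicates 1 and 4 (an alternative chosen after seeing the data), and 0 to 4 leaving out single libraries. R117fs against WT gave 1 without the low-count filter, 1 with protein-coding transcripts only, 0 in the 8 libraries alone, 5 without both R117fs libraries, and 1 to 3 leaving out single libraries. G659fs against R117fs gave 8 without both R117fs libraries.

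Genes changed, G659fs against GFP: 4258, with 6961 in the 8 libraries alone, 6729 with the GC trend removed, 7257 with the replicate block and GC trend removed, 7263 without both R117fs libraries and 3068 to 6722 leaving out single libraries. In that order, R117fs against GFP had 2620, with 575, 4601 and 5145, with 1740 under the effective length offset and 1462 to 3688 leaving out single libraries. WT against GFP had 3603, with 5893, 6275, 6830, 6661 and 2244 to 6118. G659fs against WT had 953, with 4578, 3254, 3970, 4169 and 111 to 3547, and 601 without the low-count filter, 438 with the effective length offset, 618 with protein-coding transcripts only and 1663 with DESeq2. R117fs against WT had 1362, with 149, 2931, 3672, 3406 and 639 to 2618, and 853 with the effective length offset and 787 with protein-coding transcripts only. G659fs against R117fs had 2412, with 787 (244 higher, 543 lower), 4883, 5525, 4563 and 1325 to 4027. NADSYN1 in WT against GFP turned to 0.22 with protein-coding transcripts only (edgeR adjusted p = 0.234); signs of uncalled values were not counted as directions. The causes were not tested.

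The labels do not say whether libraries with the same replicate number belong together. Same-numbered deviations correlated between -0.062 and 0.160, and some but not all libraries matched their own number best. Weak correlations of this kind cannot show that the libraries were unpaired. With the replicate block the genes changed against GFP numbered 4564 in G659fs, 2901 in R117fs and 3940 in WT, against 4258, 2620 and 3603 without it. With the replicate block the members changed numbered 9 in each group against GFP, 2 for G659fs against WT, 3 for R117fs against WT and 4 for G659fs against R117fs.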

Other observations

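Transcripts of the 13 proteins encoded in mitochondrial DNA were examined as a further list. In G659fs 7 of 13 were higher and none lower, in R117fs 1 and in WT 3 were higher, where 11.6%, 7.04% and 9.85% of all genes were higher. MT-ATP8 was higher in all 3 groups, by 0.41 ± 0.08 in G659fs, 0.25 ± 0.08 in R117fs and 0.27 ± 0.08 in WT on the log2 scale (edgeR adjusted p = 0.00132, 0.0408 and 0.0226). Their summed level was 14936 to 16503 CPM in G659fs, 14231 to 15026 in R117fs and 13704 to 16801 in WT, against 12541 to 15438 in GFP. Its part in the changes of the p53 targets was not tested.

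Within GFP, replicate 3 was the lowest library for CDKN1A, BTG2, PHLDA3, FDXR, SPATA18 and AEN, 6 of the 10 p53 target genes. Its level was 0.17 to 0.37 lower on the log2 scale than the mean of the other 3 GFP libraries. MDM2 and TP53INP1 did not share this, at -0.01 and 0.08. The 6 genes were all richer in GC than the remaining members, TP53INP1 (39.4%), MDM2 (39.6%), SESN1 (42.1%) and ZMAT3 (45.1%). Over all genes, the deviation of GFP replicate 3 had a Spearman correlation of -0.298 with GC content, a description over genes. The part of GC content in this pattern was not tested. The share of all genes for which replicate 3 was the lowest GFP library was not counted.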
